A study of Mus musculus with 2 samples.

Results

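The nuclei described here are the 333 that the deposited table of nuclei labels Unknown and places in cluster 7, out of 8171 labelled nuclei. They were chosen by those 2 labels alone, and each of their raw transcript counts was read from the matrix of its library. The male library held 190 of them and the female library 143. They made up 4.75% (95% exact binomial interval 4.11 to 5.45) and 3.43% (2.90 to 4.03) of the labelled nuclei, a mean of 4.09% ± 0.930 (SD, n = 2 libraries). All nuclei of cluster 7 were labelled Unknown and none entered the neuron subset, the 2580 nuclei (1378 and 1202) to which a neuronal subclass had been assigned. The other 62 Unknown nuclei lay in cluster 23.

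The study aimed to sort nuclei of cortical cells that had switched on Atf3 after mild traumatic brain injury (mTBI). Atf3 is a transcription factor gene induced by axon injury. The mice were of the strain Atf3-CreER::Sun1-sfGFP, with the genotype Atf3-CreER:+/wt and SUN-SfGFP:+/wt, and were over 7 weeks old. All received a closed-skull mTBI over the left sensorimotor cortex, tamoxifen at 75 mg/kg on days 4 and 5, and were used 7 days post injury (dpi). The CreER recombinase was driven from the Atf3 locus, so that any cell type that expressed Atf3 around the tamoxifen doses could carry the nuclear GFP. Nuclei positive for GFP and for the DNA dye DRAQ5 were sorted from the frozen ipsilateral cortex, dissected away from the tissue under the corpus callosum. Each library pooled 4 animals, and no uninjured animals entered either library. The comparison below is thus between cluster 7 and the other sorted neurons of the same injured mice. A label field gives male for both libraries, but in cluster 7 Xist was at 1.11 counts per 1000000 (CPM) in one library and at 1357 CPM in the other, and Uty at 110.2 and 0.664 CPM. They are therefore called male and female here, and paired values below are given in that order.

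Dentate granule neurons are the small, densely packed excitatory neurons of the hippocampal dentate gyrus. The homeobox factor Prox1 sets and maintains their identity, they receive the perforant path from entorhinal cortex, and their mossy fibre axons reach CA3. They lie under the corpus callosum, outside the cortex that was dissected. In axotomized neurons, Atf3 acts with Jun in a regeneration programme that includes Sox11, Gap43 and Ecel1, while Ddit3, which encodes CHOP, is an effector of the integrated stress response.

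Cluster 7 nuclei had the depth of the other neurons. A median of 3722 and 8652 unique molecular identifiers (UMIs, counted transcripts) was found per nucleus, where the neuron subset had 3591 and 8501.5. The sums held 898709 and 1505000 UMIs, in which 3 counts correspond to 3.34 and 1.99 CPM. The median mitochondrial share was 0.116% and 0.0449%, against 0.154% and 0.0681%. All intervals given here cover counting error only. Since the clusters were made from the expression of these same nuclei, no p-value is given for cluster 7 against other nuclei. Calls rest on the ratio of CPM + 0.5 in cluster 7 to that in the neuron subset. A gene is called higher or lower when this ratio was at least 2-fold in the same direction in both libraries. Only genes at 10 CPM or more in both libraries of either group were tested. A gene that passed this filter through cluster 7 alone could not be called lower, and through the neuron subset alone not higher.

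Stra6, which encodes a cell surface receptor for vitamin A bound to its carrier (mouse build GRCm38, chr9:58063788-58153996, plus strand), was the gene with the highest ratio. It was at 131 and 142 CPM in cluster 7 nuclei, from 118 and 213 UMIs, and at 0.327 and 0.609 CPM in the neuron subset. None of the 9 neuronal subclasses with enough nuclei exceeded 3.90 CPM in either library. The log2 ratio was 7.16 ± 0.22 (SD, n = 2). The neuron subset held only 2 and 7 Stra6 UMIs, which gives a male ratio of 402 with a counting interval of 109 to 3358, and a pseudocount of 5 CPM lowered the log2 ratio to 4.69.

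Smoc2, a secreted calcium-binding matrix protein gene (chr17:14279506-14404790, plus strand), was at 203 and 260.5 CPM, against 2.29 and 2.44 CPM in the neuron subset. Ntf3, the gene of the growth factor neurotrophin-3 (chr6:126101412-126166910, minus strand), was at 71.2 and 67.1 CPM, against 0.490 and 0.0870 CPM. Both lay above every one of the 9 subclasses in both libraries, as did Stra6. Their log2 ratios were 6.33 ± 0.20 and 6.51 ± 0.47. With 3 and 1 Ntf3 UMIs in the neuron subset, the size of the latter is loose, and it was 3.81 with a pseudocount of 5 CPM.

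Prox1 (chr1:190118035-190170714, minus strand) was at 244 and 239 CPM, against 7.84 and 8.44 CPM, a log2 ratio of 4.81 ± 0.09, or 2.97 when each subclass had equal weight. It was not particular to cluster 7: Vip interneurons, in which Prox1 is also a known factor, stood at 187 and 350.0 CPM. Prox1os, on the opposite strand at chr1:190170296-190217276, was at 51.2 and 71.1 CPM against 1.14 and 1.04 CPM. It overlaps the first bases of Prox1, so that its value is uncertain where reads fall in the overlap.

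**Figure D1:**
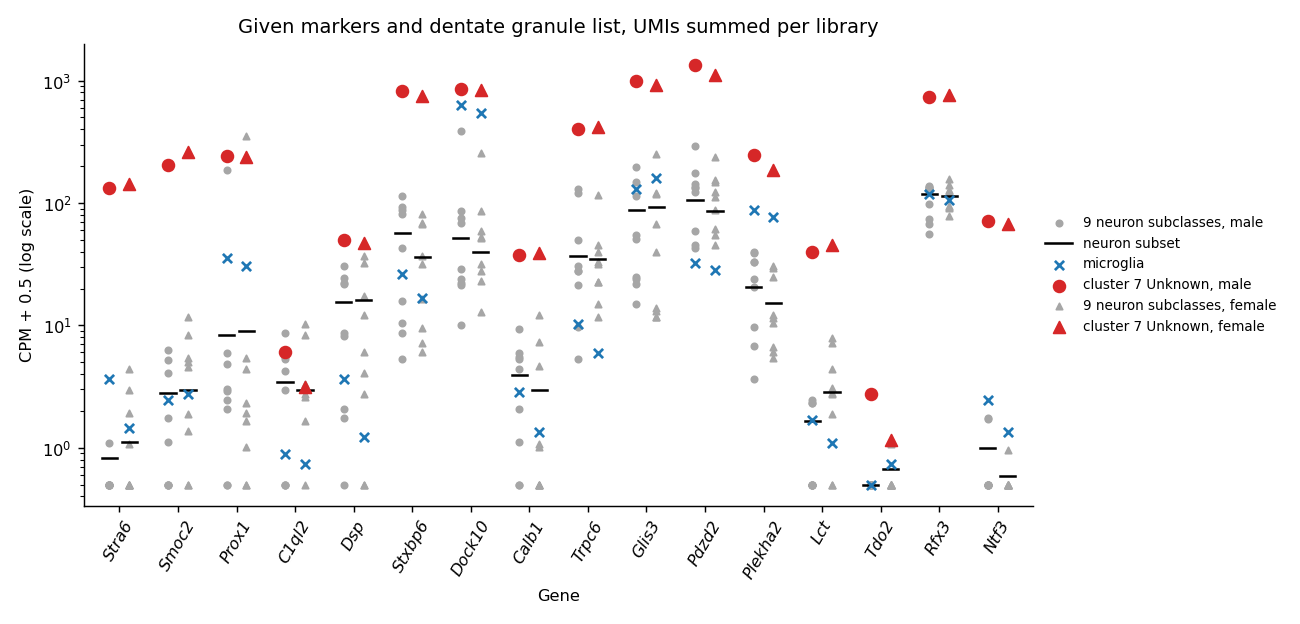
CPM + 0.5 (log axis) of Stra6, Smoc2 and the 14 genes of the dentate granule list, with 1 point per group and library: cluster 7 (red), the 9 neuronal subclasses (grey) and microglia (blue crosses), with a bar for the neuron subset, males as circles and females as triangles. Cluster 7 lies above every subclass for Stra6, Smoc2 and Ntf3, while Prox1 reaches 187 and 350.0 CPM in Vip interneurons and C1ql2 in cluster 7 is at 5.56 and 2.66 CPM.

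Most nuclei held at least 1 of the 4 markers, but not each of them. At least 1 UMI of Prox1 was found in 60.5% and 81.8% of cluster 7 nuclei, in 2.76% and 3.74% of the neuron subset and in 4.82% and 8.68% of microglia, whose median depth was 1304 and 3038 UMIs. Stra6 was found in 39.5% and 59.4% of cluster 7 nuclei, 0.145% and 0.582% of the neuron subset and 0.471% and 0.339% of microglia. Smoc2 was found in 55.8% and 76.9% of cluster 7 nuclei and Ntf3 in 24.2% and 38.5%, against at most 1.83% of the neuron subset or microglia for either. Thinning each nucleus to 2000 UMIs leaves out shallower ones: 15 and 0 nuclei of cluster 7, 313 and 105 of the neuron subset, and 1378 and 431 of 1700 and 2362 microglia. After it, the share with Prox1 was 37.1% and 41.3% in cluster 7, 1.60% and 1.64% in the neuron subset and 6.21% and 5.28% in microglia. The gap between the libraries in the unthinned shares thus narrowed at equal depth. Without thinning, 27 of the 190 male and 4 of the 143 female nuclei had no UMI of any of the 4 markers, and 15 and 32 had all 4.

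A list of 14 genes known to mark dentate granule neurons was mostly high. The list was chosen with earlier results of these data known, so it is not independent evidence of identity. Of its members, 12 were called higher in cluster 7, none was lower, and the other 2 were under the 10 CPM filter. Calb1, Lct, Ntf3 and Prox1 passed that filter through their level in cluster 7 alone and so could not have been called lower, and Ntf3 and Prox1 are also among the 4 markers above. Across all 8386 genes tested, 892 were called higher, or 10.6%. The median log2 ratio of the 12 was 3.63, against -0.138 over all genes tested. The summed level of the 14 genes was 5836 and 5435 CPM, against 506 and 445 CPM in the neuron subset. Microglia stood at 1075 and 974 CPM, and the Unknown nuclei of cluster 23 at 4797 and 3568 CPM.

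The most abundant members were Pdzd2, a PDZ scaffold gene, at 1342 and 1102 CPM against 106 and 85.0 CPM, and Glis3, a zinc finger transcription factor gene, at 987 and 926 CPM against 87.9 and 91.7 CPM. Dock10, an exchange factor for small GTPases, was at 860.1 and 845 CPM against 51.4 and 39.1 CPM. It is also a microglial transcript, at 631 and 548 CPM in the microglia of these libraries. Stxbp6, which binds SNARE proteins of vesicle fusion, was at 823 and 755 CPM against 56.5 and 35.8 CPM.

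Rfx3, a regulator of cilium genes, was at 732 and 763 CPM against 117 and 113 CPM, and the cation channel gene Trpc6 at 399 and 421 CPM against 36.3 and 34.2 CPM. The classical mature granule marker Calb1, encoding calbindin, was scarce but higher, at 36.7 and 38.5 CPM against 3.43 and 2.44 CPM. Lct, encoding lactase, was at 38.9 and 45.2 CPM against 1.14 and 2.35 CPM. The remaining called members were Plekha2, Dsp, Ntf3 and Prox1. In all, 11 of the 12 stood above each of the 9 subclasses in both libraries, as did 11.8% of all genes tested, and Prox1 was the exception. C1ql2, a secreted synaptic organizer of mossy fibres, stayed at 5.56 and 2.66 CPM against 2.94 and 2.44 CPM, and Tdo2, a tryptophan-degrading enzyme gene, at 2.23 and 0.664 CPM.

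The members of the list were seen together in single nuclei. At 2000 UMIs per nucleus, cluster 7 nuclei held a median of 5 and 6 of the 14 markers. The median was 1 and 0 in the neuron subset and 1 and 1 in microglia. At least 3 were found in 175 of 175 male nuclei and in 139 of 143 female nuclei, or 97.2%. In the neuron subset the share was 5.26% and 2.46%, and in microglia 8.39% and 8.96%. No cluster 7 nucleus lacked all 14, while 42.6% and 50.3% of the neuron subset did. The pattern was not particular to cluster 7. In cluster 23, the 20 female nuclei with 2000 UMIs or more held a median of 4, and 19 of them (95%) held at least 3. None of its male nuclei reached that depth.

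**Figure D2:**
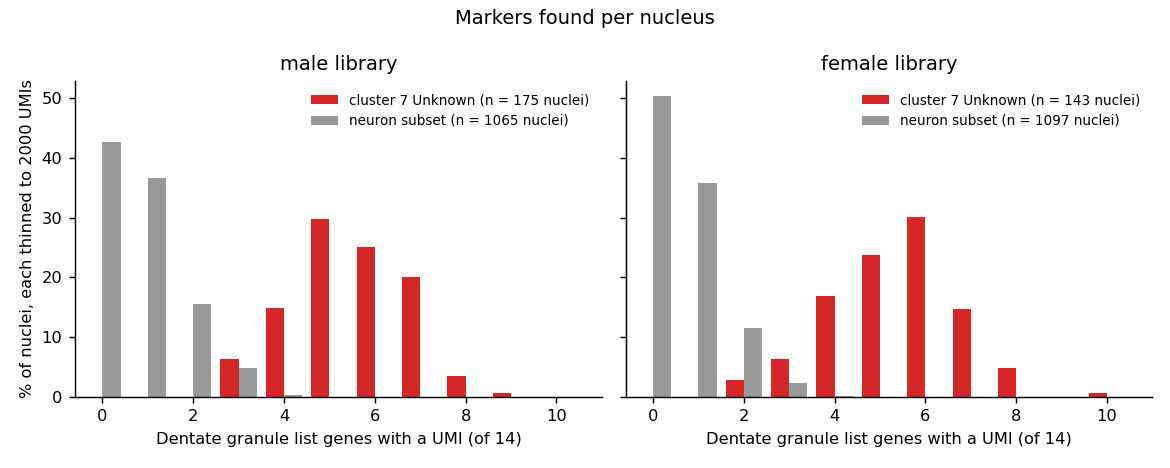
Percent of nuclei (vertical axis) by the number of the 14 dentate granule markers with a UMI after thinning to 2000 UMIs (horizontal axis), for cluster 7 and the neuron subset in each library. Cluster 7 centres on 5 and 6 markers, and the neuron subset on 1 and 0.

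Lists of other hippocampal and subcortical neurons had few tested genes. Over all genes tested, 10.6% were higher and 14.8% lower. For CA1 pyramidal neurons, 3 of 5 genes were tested and all 3 were lower: Man1a, a mannosidase gene, was at 20.03 and 12.6 CPM against 242 and 225 CPM, and Wfs1 and Mpped1 followed. All 5 CA2 genes were under the filter. Of the CA3 list, 3 of 5 were tested and Cpne4, a calcium-binding copine gene, was higher at 478 and 474 CPM against 59.5 and 56.9 CPM, while Grik4 and Nectin3 were in neither direction. Of 7 thalamic genes, only Ntng1, encoding the axonal adhesion protein netrin-G1, passed the filter, and it was higher at 984 and 966 CPM against 71.5 and 75.5 CPM. The thalamic genes Slc17a6, Gbx2 and Zic1 were at 0 in both libraries, as were the cerebellar genes Gabra6 and Fat2. Of 5 striatal genes 2 were tested and neither was called.

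Of 6 genes of newborn granule neurons 2 were tested. Neurod1 passed the filter through cluster 7 alone and Dcx through the neuron subset alone, so each could be called in 1 direction only. Neurod1, a differentiation factor of this lineage, was higher at 20.03 and 13.95 CPM against 4.08 and 2.52 CPM. Dcx, encoding the doublecortin of migrating neurons, was lower at 20.03 and 6.64 CPM against 63.2 and 73.2 CPM. Calb2, Draxin, Eomes and Igfbpl1 were at 0 in both libraries.

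Cluster 7 nuclei held general neuronal markers and higher levels of most tested excitatory ones. Of 6 pan-neuronal genes 5 were tested, with 1 higher and 2 lower, against 10.6% and 14.8% of all genes tested. The summed level of the 6 was 7963 and 7411 CPM, against 16858 and 17708 CPM in the neuron subset. Snap25 was in neither direction and Tubb3 was under the filter. Rbfox3, which encodes the neuronal antigen NeuN, was higher at 1530.0 and 1704 CPM against 502 and 464 CPM, a call that was lost against L2/3 IT CTX-1 nuclei alone. The synaptotagmin gene Syt1 was at 2196 and 1993 CPM against 1835 and 1569 CPM, in neither direction. Of 8 pan-excitatory genes 6 were tested and 4 were higher, against 10.6% of all genes tested. Slc17a7, the vesicular glutamate transporter VGLUT1, was at 210.3 and 133 CPM against 46.1 and 19.1 CPM and exceeded every subclass, and Camk2a was at 1075 and 1086 CPM against 327 and 259 CPM. Nrgn and Neurod2 were the others. Sv2b, a synaptic vesicle protein gene, was lower at 5.56 and 3.99 CPM against 53.2 and 44.4 CPM. It passed the filter through the neuron subset alone and so could not have been called higher. Map2 and the nuclear RNA Meg3 were also lower, Meg3 at 3090.0 and 2675 CPM against 11602 and 12632 CPM.

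Cortical layer genes contrasted with the label from the reference atlas. Mapping had placed 177 of the 190 male nuclei (93.2%) and 138 of the 143 female nuclei (96.5%) nearest to the cortical subclass L2/3 IT CTX-1 before they were relabelled Unknown. Yet all 5 tested genes of the upper layer list were lower, where 14.8% of all genes tested were. Cux2, a transcription factor of upper layers, was at 23.4 and 3.99 CPM against 249 and 219 CPM. Rorb, which marks layer 4, was at 6.68 and 15.3 CPM against 88.2 and 69.8 CPM, and Rasgrf2 and Cux1 were lower too. At least Cux2 and Rorb passed the filter through the neuron subset alone and so could not have been called higher.

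Of the deep layer list, 8 of 9 genes were tested, 2 were higher and 2 lower. Over all genes tested, 10.6% were higher and 14.8% lower. Bcl11b, encoding CTIP2, a factor of subcerebral neurons that dentate granule neurons express too, was at 359 and 329.6 CPM against 35.8 and 34.3 CPM and above every subclass, and Tle4 was also higher. Tshz2 was at 5.56 and 7.31 CPM against 194 and 151 CPM, Crym was lower too, and Fezf2, the selector of corticospinal identity, was at 0. At least Tshz2 passed the filter through the neuron subset alone and so could not have been called higher. Reln, the extracellular glycoprotein gene of Cajal-Retzius cells and many interneurons, was lower at 12.2 and 5.98 CPM against 232 and 194 CPM. Ntng2 was the only tested gene of the layer 6b and claustrum list and was higher, while Cplx3, Ctgf and Nxph4 were at 0.

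Of 12 inhibitory genes 5 were tested. Adarb2, an RNA-editing family gene, was higher at 2149.8 and 1845 CPM against 231 and 263 CPM, yet below the 4559.9 and 4567 CPM of Vip interneurons. Gad2, the GABA-synthesizing enzyme, was called lower at 15.6 and 13.95 CPM against 91.6 and 97.2 CPM. Its direction depended on the interneurons in the neuron subset: against the excitatory nuclei alone the log2 ratio was 1.29. Dlx6os1 was lower, a call that was also lost against excitatory nuclei, and Slc32a1 and Sst were at 0.

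Markers of other cells were measured beside these. The microglia list of 12 genes summed to 461 and 757 CPM, against 504 and 894 CPM in the neuron subset and 6443 and 6279 CPM in microglia, and 0 of its 5 tested genes were called. All 6 vascular genes and both OPC genes were under the filter. Of the astrocyte list, the glutamate transporter genes Slc1a3, at 84.6 and 77.1 CPM against 9.96 and 8.18 CPM, and Slc1a2, at 226 and 209 CPM against 102 and 80.8 CPM, were higher, while the other 4 were under the filter and Gja1 was at 0. The Slc1a2 call was lost against excitatory nuclei. Of the oligodendrocyte list, St18, a zinc finger factor gene, was higher at 203 and 210.0 CPM against 3.76 and 5.57 CPM. Mbp was at 113 and 152 CPM against 64.7 and 50.02 CPM, and Mag, Mobp and Mog were under the filter.

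The genes with the largest ratios beside Stra6, Smoc2, Ntf3 and St18 included several enzymes. Car12, a membrane carbonic anhydrase, was at 124 and 132 CPM against 2.12 and 2.35 CPM. Ndst4 and Chst9, which add sulfate to glycans, were at 201 and 176 CPM and at 70.1 and 100.3 CPM, against at most 4.25 CPM for either in the neuron subset. The kinase genes Plk5, at 60.1 and 53.8 CPM, and Mylk3, at 84.6 and 81.1 CPM, and the less studied Vwa3b, at 87.9 and 87.7 CPM, were at no more than 1.65 CPM in the neuron subset. The others of the 15 were Prox1os, Mfsd13b, Olfr61, Gm46123 and Gm44724.

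At the other end, 1244 genes, 14.8% of those tested, were called lower. Epb41l4a, a membrane-cytoskeleton linker gene, was at 2.23 and 2.66 CPM against 147 and 184 CPM. Adra1b, an adrenergic receptor gene, was at 1.11 and 1.99 CPM against 78.4 and 87.2 CPM, and Kcnmb2, a subunit of calcium-activated potassium channels, at 6.68 and 11.96 CPM against 375 and 428 CPM. Several genes had no UMI in either library. Ddah1, an enzyme gene of methylarginine breakdown, was at least 6.70-fold and 14.7-fold lower, set against the 3 counts that a count of 0 allows per library. The intermediate filament gene Nes was at least 6.41-fold and 9.99-fold lower. Crhbp, which encodes a binding protein of corticotropin-releasing hormone, was at 0 too, but the excitatory neurons of the subset had only 2.01 and 1.42 CPM against 117 and 96.7 CPM in Sst interneurons, and the call was lost against excitatory nuclei. Pdpn and Tle3 were also at 0, and Pappa2 and Xirp2 were among the 15 as well. Against L2/3 IT CTX-1 nuclei alone the calls of Kcnmb2, Ddah1 and Pdpn were lost.

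The ratios of the 2 libraries resembled each other across genes, with a Pearson correlation of 0.925 over the 8386 genes, which are not independent and share the depth of each library. Only 1 gene passed the 2-fold threshold in opposite directions, and 944 passed it in 1 library only. Between the libraries, within cluster 7, 69 of 3274 genes at 50 CPM or more in either were at least 2-fold higher in the male and 10 in the female nuclei. For the neuron subset these counts were 34 and 7 of 3419. With 1 library of each sex, sex and library cannot be told apart.

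**Figure D3:**
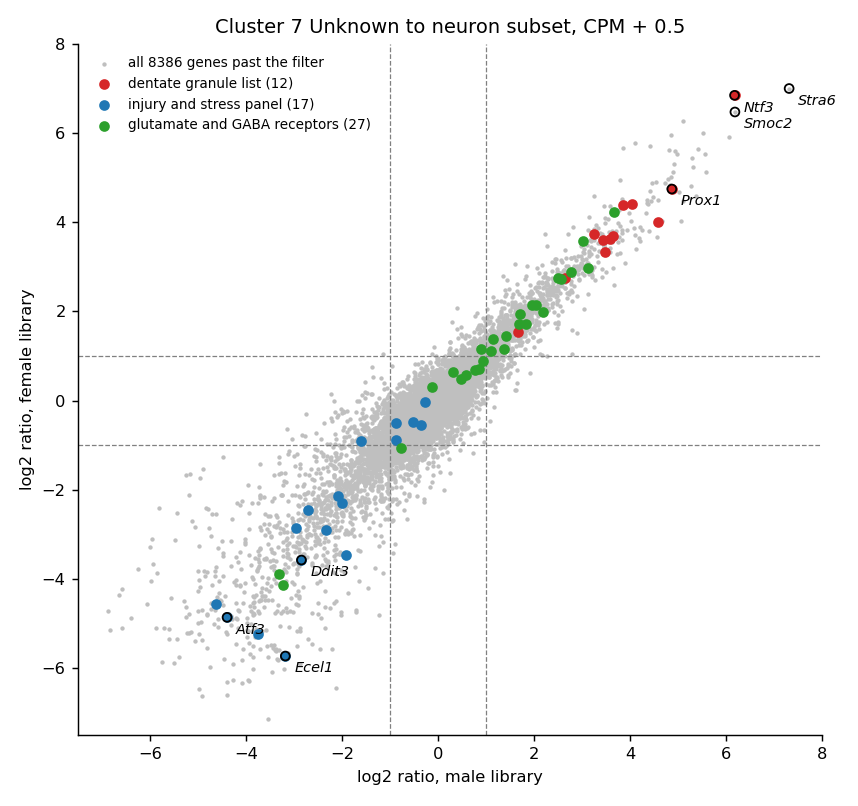
Log2 ratio of CPM + 0.5 in cluster 7 to the neuron subset in the male library (horizontal axis) and the female library (vertical axis), with 1 grey point for each of 8386 genes and colours for 3 lists; dashed lines mark 2-fold. The tested dentate granule genes (12, red) lie past 2-fold on the higher side in both libraries, the stress panel (17, blue) lies at or under 0, and the correlation is 0.925.

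In the level of all tested genes, the subclass most like cluster 7 was L4/5 IT CTX, with Pearson correlations of log2 CPM of 0.732 and 0.742, followed among the 9 subclasses by L2/3 IT CTX-1 at 0.720 and 0.707. The shallow cluster 23 stood at 0.680 and 0.738, and microglia at 0.534 and 0.521. Pairs of the 9 subclasses, 36 in all, correlated with a median of 0.779 and 0.830. As a yardstick for the counts of called genes, each subclass set against the other neurons of the subset in the same way gave 180 to 389 genes higher and 134 to 746 lower. The counts of cluster 7 lay outside both ranges, as descriptions without a test.

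Atf3 itself (chr1:191170296-191218039, minus strand), the gene whose locus drove the CreER recombinase, was nearly absent from cluster 7 at 7 dpi. Whether these nuclei had expressed Atf3 around the tamoxifen doses was not tested. It had 4 UMIs in 2 male nuclei and 8 UMIs in 8 female nuclei, or 4.45 CPM (95% exact Poisson interval 1.21 to 11.4) and 5.32 CPM (2.29 to 10.47). The neuron subset stood at 104 and 169 CPM, the lowest subclass at 14.3 and 31.0 CPM, and microglia at 28.1 and 41.4 CPM. Cluster 7 was 23.4-fold (9.09 to 86.1) and 31.8-fold (16.1 to 73.7) lower than the neuron subset. Barcodes with 1 to 100 UMIs, which mostly hold free RNA, had Atf3 at 39.3 and 73.9 CPM.

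Ecel1, an endopeptidase gene induced by nerve injury (chr1:87147655-87156521, minus strand), was at 28.9 and 6.64 CPM, against 267 and 379.5 CPM in the neuron subset and 45.3 and 32.6 CPM in microglia. It was 9.24-fold (6.28 to 14.2) and 57.1-fold (31.0 to 119) lower than the neuron subset, and these intervals of the 2 libraries did not overlap. Ddit3 (chr10:127290774-127296288, plus strand) was at 20.03 and 7.31 CPM against 147 and 92.8 CPM, or 7.36-fold (4.63 to 12.5) and 12.7-fold (7.07 to 25.5) lower, and microglia were at 55.4 and 33.7 CPM. In barcodes of few UMIs, Ecel1 was at 155 and 186 CPM and Ddit3 at 201 and 124 CPM.

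The shares of nuclei with these transcripts did not exceed those in microglia at equal depth. Atf3 was seen in 1.05% and 5.59% of cluster 7 nuclei, 24.5% and 43.9% of the neuron subset and 3.41% and 9.36% of the shallower microglia. At 2000 UMIs per nucleus Atf3 was left in 1.14% of male nuclei and 0 of 143 female nuclei of cluster 7. The latter allows a share of up to 2.55%. The neuron subset had 15.9% and 20.9% and microglia 4.97% and 5.64%. Ecel1 was seen in 10.53% and 6.29% of cluster 7 nuclei, 60.01% and 79.0% of the neuron subset and 6.12% and 7.66% of microglia. At 2000 UMIs the Ecel1 share was 5.71% and 1.399% in cluster 7 and 6.83% and 4.30% in microglia. Ddit3 was seen in 7.89% and 6.99% against 35.3% and 38.5%, with microglia at 7.24% and 9.70%, and at 2000 UMIs in 3.43% and 2.098% against 8.39% and 6.01% in microglia.

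Any of the 3 injury transcripts was found in 32 of 190 (16.8%) and 24 of 143 (16.8%) cluster 7 nuclei. This compared with 75.8% and 84.2% of the neuron subset and with 15.3% and 23.4% of microglia. Of the cluster 7 nuclei with one of them, 27 of 32 and 23 of 24 also carried a UMI of Stra6, Smoc2, Ntf3 or Prox1.

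**Figure D4:**
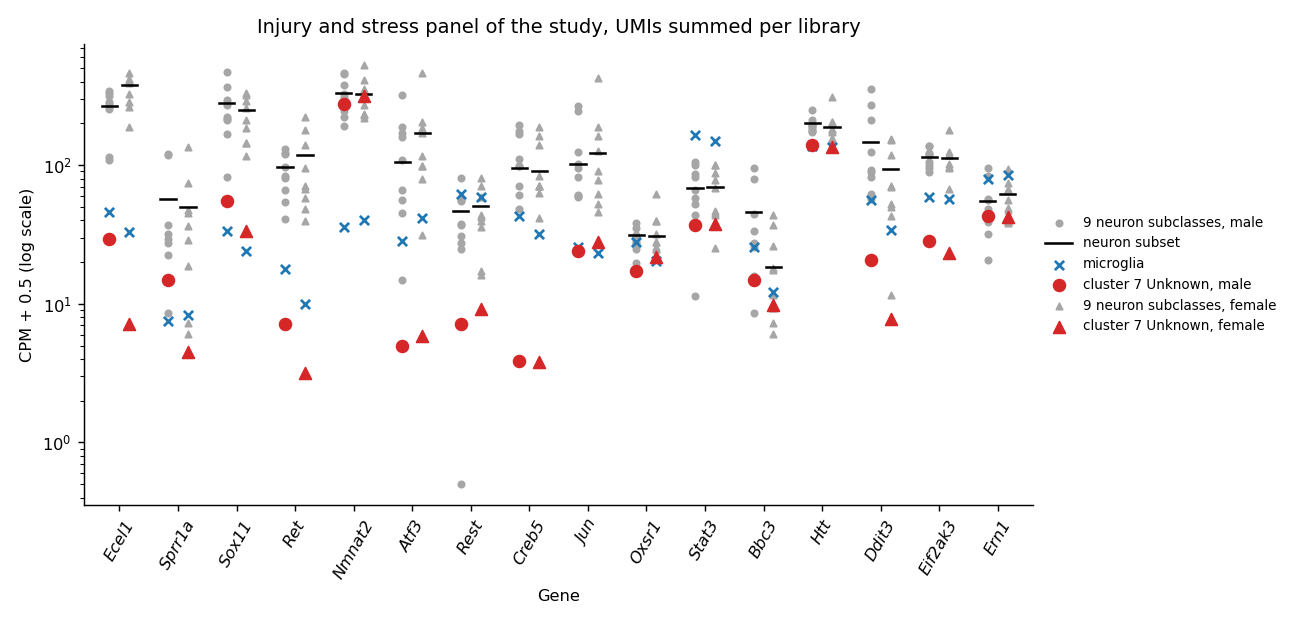
CPM + 0.5 (log axis) of 16 genes of the stress panel, with 1 point per group and library: cluster 7 (red), the 9 neuronal subclasses (grey) and microglia (blue crosses), with a bar for the neuron subset, males as circles and females as triangles. Atf3 in cluster 7 (4.45 and 5.32 CPM) lies under the lowest subclass (14.3 and 31.0 CPM), while Nmnat2 (274 and 314 CPM) lies among the subclasses.

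The 17 genes of the stress panel that the study had chosen on these samples are not independent evidence of a direction. Of these, 11 were lower in cluster 7, none was higher, and 6 were in neither direction. Also 11, not all of them the same genes, lay below each of the 9 subclasses in both libraries: Rest and Sprr1a did not, while Htt and Oxsr1 did. The background was 14.8% of genes lower and 10.4% below each subclass, and the median log2 ratio of the panel was -2.58. Of the lower genes, at least Atf3, Creb5, Ddit3, Ecel1, Rest, Ret and Sprr1a passed the filter through the neuron subset alone. These could not have been called higher. Creb5, a bZIP factor gene, was at 3.34 and 3.32 CPM against 94.4 and 90.4 CPM, and Ret, a receptor of GDNF family ligands, at 6.68 and 2.66 CPM against 96.0 and 118 CPM. Sox11 was at 54.5 and 33.2 CPM against 278 and 251 CPM. The 6 in neither direction were Nmnat2, an axon survival factor gene at 274 and 314 CPM against 329.9 and 323 CPM, and Stat3, Bbc3, Htt, Ern1 and Oxsr1.

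Of 22 regeneration-associated genes, 17 were tested, 15 were lower and none was higher, with a median of -2.43, where 14.8% of all genes were lower. Gap43, a growth cone protein gene, was at 27.8 and 13.3 CPM against 448 and 439 CPM, and the neuropeptide gene Npy at 4.45 and 0.664 CPM against 73.5 and 37.2 CPM. Gal, Nts, Socs3 and Tnfrsf12a were at 0. Of the 15 lower genes, at least Adcyap1, Atf3, Ecel1, Npy and Sprr1a passed the filter through the neuron subset alone. These could not have been called higher. Basp1, at 166 and 133 CPM against 266 and 199.98 CPM, and Klf7 were in neither direction. Of the 4 tested genes of the AP-1 and bZIP list, Atf3, Jun and Jund were lower, and Jun was at 23.4 and 27.2 CPM against 101 and 122 CPM.

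The integrated stress and unfolded protein response list had 10 of 13 tested genes lower and none higher, against 14.8% lower over all genes. Trib3, a target of CHOP, was at 1.11 and 0.664 CPM against 44.8 and 31.9 CPM. At least Trib3, Atf4 and Ddit3 passed the filter through the neuron subset alone and so could not have been called higher. The chaperone gene Hspa5 was at 23.4 and 16.6 CPM against 99.1 and 127 CPM, and Eif2ak3, which encodes the sensor kinase PERK, at 27.8 and 22.6 CPM against 113 and 113 CPM. The sensor gene Atf6 was in neither direction at 266 and 258 CPM against 186 and 154 CPM. Of 11 tested apoptosis genes, 6 were lower against the same background, among them the BH3-only gene Hrk at 20.03 and 11.3 CPM against 87.7 and 75.9 CPM.

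The upstream DLK, JNK and SARM1 axis, which signals axon damage to the nucleus, was near the background. Of its 14 genes, all tested, 1 was higher, 2 were lower and 11 were in neither direction. Over all genes tested, 10.6% were higher and 14.8% lower. The median of the list was -0.14, against -0.138 over all genes tested. Mycbp2, a ubiquitin ligase gene that limits DLK, was higher at 1123 and 1235 CPM against 533 and 604 CPM. That call was lost after thinning to 2000 UMIs per nucleus. Jun and Sarm1 were lower, the Sarm1 call being lost against L2/3 IT CTX-1 nuclei alone. The kinase gene Mapk10 was at 563 and 757 CPM against 435 and 394 CPM.

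**Figure D5:**
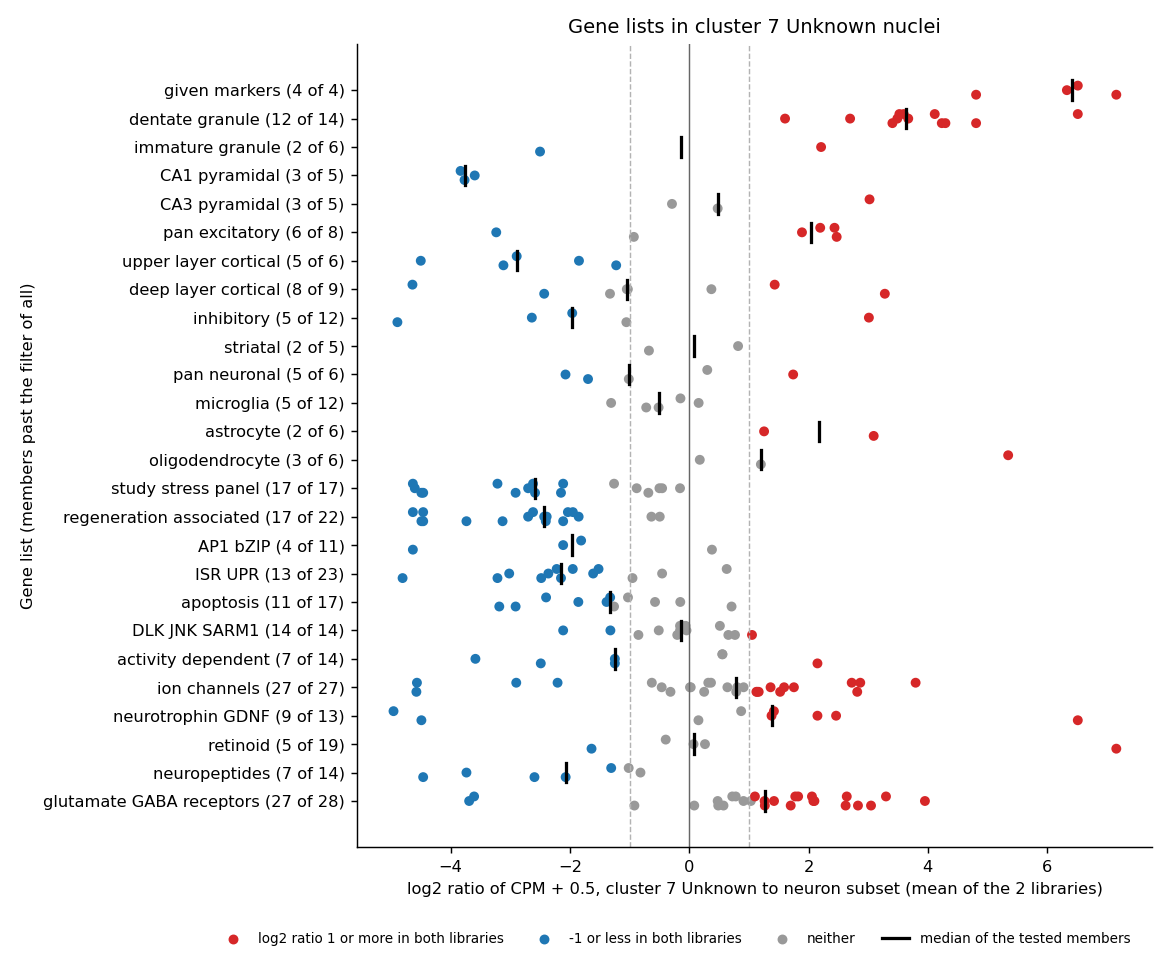
Mean log2 ratio of CPM + 0.5 in cluster 7 to the neuron subset over the 2 libraries (horizontal axis) for each tested gene of each list, with the list's median as a bar; dashed lines mark 2-fold. The dentate granule list has a median of 3.63 and the stress panel one of -2.58, while the 14 genes of the DLK, JNK and SARM1 list have a median of -0.14.

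Genes that follow neuronal activity differed in direction. Of 7 tested, 4 were lower and 1 higher, where 14.8% and 10.6% of all genes were. The lower ones included the immediate early gene Egr1 at 15.6 and 8.64 CPM against 157 and 134 CPM, and Arc and Homer1, which act at synapses, and the Homer1 call was lost against L2/3 IT CTX-1 nuclei alone. At least Arc and Egr1 passed the filter through the neuron subset alone and so could not have been called higher. The Arc and Homer1 calls were also lost after thinning to 2000 UMIs per nucleus. Nr4a1 and Nptx2 were in neither direction, with log2 ratios of 0.56 and 0.55. Bdnf, the gene of an activity-regulated neurotrophin abundant in the mossy fibre pathway, was higher at 160.2 and 153 CPM against 41.8 and 29.2 CPM.

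Other neurotrophin and GDNF family genes differed within the family. Of 9 tested, 5 were higher and 2 lower, against 10.6% and 14.8% of all genes. On the ligand side, Ntf3 and Bdnf were higher. On the receptor side, Ntrk3, which encodes the neurotrophin-3 receptor TrkC, was at 1197 and 1454 CPM against 232 and 246 CPM, Sort1 and Gfra1 were higher, and Ret was lower. The Gfra1 call was lost against L2/3 IT CTX-1 nuclei alone, and the Gfra1 and Sort1 calls after thinning to 2000 UMIs per nucleus. Ntrk2, encoding TrkB, was at 425 and 484 CPM against 431 and 385 CPM, and Ngfr, Gdnf and Ntf5 were at 0. Of the 5 tested retinoid genes, Stra6 alone was higher, and the retinoic acid receptor gene Rarb was lower at 16.7 and 13.3 CPM against 45.9 and 49.0 CPM. Aldh1a1 and Aldh1a3, which make retinoic acid, Cyp26a1, which degrades it, and Crabp1, Crabp2 and Lrat were at 0.

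Genes of glutamate and GABA receptors were mostly higher. Of 27 tested, 16 were higher, 2 were lower and 18 stood above each subclass, with a median of 1.27. Over all genes 10.6% were higher, 14.8% lower and 11.8% above each subclass. The presynaptic receptor gene Grm2 was at 26.7 and 21.9 CPM against 1.63 and 0.696 CPM, and Grm5 at 1661 and 1780.1 CPM against 280.4 and 270.4 CPM. The GABA-A subunit genes Gabrd and Gabra5, which form extrasynaptic receptors, were at 159 and 79.1 CPM against 17.8 and 9.66 CPM and at 79.0 and 101 CPM against 9.31 and 8.003 CPM. Gabra2 was at 566 and 497 CPM against 83.0 and 66.5 CPM. At least Grm2, Gabra5 and Gabrd did not pass the filter through the neuron subset and so could not have been called lower. Gabrg3 was lower at 106 and 76.4 CPM against 1053 and 1149.6 CPM. The kainate receptor gene Grik1 was lower too, a call that was lost against L2/3 IT CTX-1 nuclei alone. Grik1 passed the filter through the neuron subset alone and so could not have been called higher.

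Of 27 ion channel genes, 11 were higher, against 10.6% of all genes. The 4 lower ones are the same share as over all genes, 14.8%. At least Cacna1h passed the filter through cluster 7 alone and so could not have been called lower. The paper reports downregulation of select ion channel genes in its captured neurons relative to a reference dataset. These ratios therefore do not place cluster 7 against uninjured neurons. The T-type calcium channel gene Cacna1h was at 62.3 and 81.7 CPM against 3.92 and 5.57 CPM, and Kcnj3, a subunit of G protein-gated potassium channels, at 827 and 634 CPM against 118 and 88.7 CPM. Kcnc2, a subunit for fast repolarization, was lower at 40.1 and 14.6 CPM against 628 and 546 CPM, and Kcnq5 and Kcnh7 were lower as well. Of 7 tested neuropeptide genes, 5 were lower, against 14.8% of all genes, among them Vgf at 13.4 and 9.30 CPM against 75.6 and 64.5 CPM, while Gal, Nts, Sst, Tac1 and Tac2 were at 0. At least Adcyap1, Npy and Vgf passed the filter through the neuron subset alone and so could not have been called higher.

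The reporter transcript was scarce too. A UMI of the plasmid sequence carrying GFP was found in 0 of 190 male nuclei, which allows a share of up to 1.92%, and in 5 of 143 female nuclei, or 3.50% (1.14 to 7.97). In the neuron subset the share was 2.32% (1.59 to 3.26) and 8.74% (7.20 to 10.48). L4/5 IT CTX neurons had 0 of 100 and 1 of 71, so that the low share was not particular to cluster 7.

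Within cluster 7, the nuclei with an Atf3 UMI were compared with the others. They numbered 2 against 188 and 8 against 135, and the counts of each set were summed per library, giving 4 sums. Of 5636 genes tested with the quasi-likelihood test of edgeR, with library as a block, 0 passed an adjusted p of 0.05. The lowest adjusted p was 0.999, and 161 genes had an unadjusted p under 0.05. DESeq2 called 0, with 51 at an unadjusted p under 0.05. With 2 and 8 nuclei, differences were not detectable at this depth, and the split itself cannot separate nuclei that express Atf3 from nuclei that took up free RNA.

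The Unknown nuclei of cluster 23 were shallower, with a median of 1089 and 2611 UMIs and sums of 41689 and 80707 UMIs, in which 3 counts correspond to 72.0 and 37.2 CPM. Smoc2 was at 192 and 186 CPM, Ntf3 at 95.9 and 74.3 CPM and Prox1 at 144 and 149 CPM, all above the neuron subset, and Stra6 was at 99.1 CPM in the female and a single UMI in the male nuclei. Atf3 had no UMI in either library. Ecel1 was at 119.9 and 37.2 CPM, in 5 of 35 and 3 of 27 nuclei, above the 28.9 and 6.64 CPM of cluster 7. Ddit3 was at 95.9 and 0 CPM, against 20.03 and 7.31 CPM in cluster 7. With so few counts, whether these levels differ from those of cluster 7 or microglia was not tested.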

How the data were processed

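Single-nucleus RNA-seq was measured in 2 libraries of sorted nuclei at 7 dpi. The deposited matrices hold raw counts of UMIs per gene and nucleus, made by the authors with Cell Ranger, for which the sources used here name different versions, on a mouse pre-mRNA reference (GRCm38, the build also called mm10) with plasmid sequences added. The deposited nuclei table gives the authors' cluster and subclass labels (Seurat), total counts, and the percent of mitochondrial counts, and its totals equalled the matrix sums. Its 3 further columns of per-nucleus values and the depth-corrected matrix were not used.

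Counts were summed per library and group and scaled to CPM over all genes but the plasmids. Ratios used a pseudocount of 0.5 CPM. The libraries shared 1 barcode, which was not among the 333 nuclei, and no nucleus was removed. Scrublet marked 43 of 4044 barcodes (1.06%, 2 of them in cluster 7) in the male library but 4 of 4214 (0.0949%) in the female, where it did not work. Nuclei are not replicates, and the libraries were the unit throughout. The members and gene lists were chosen with earlier results of these data known. Named genes were the 4 given markers and Atf3, Ecel1 and Ddit3, the 15 largest and 15 smallest ratios (ranked by the library nearer to 0), and up to 4 members of each list with the largest ratio plus those at 0. Further members were named after their values were seen. Intervals were exact (Clopper-Pearson or Poisson, 95%). Poisson intervals treat UMIs as independent. The Atf3 split was tested with edgeR 4.0.16 and DESeq2 1.42.0 in R 4.3.3, after a check on simulated counts, and the rest was computed with scanpy 1.11.5, pandas 2.3.3, scipy 1.17.1 and numpy 2.4.6 under Python 3.11.15. The library served as the replicate block because both sums of a library come from the same nuclei suspension. Gene positions are from GENCODE on GRCm38. Some genes of the lists, and alternatives that depend on them, are not reported here.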

Additional observations from a re-analysis of the deposited data

How the results depend on the processing

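Stra6, Smoc2, Ntf3, Prox1, Atf3, Ecel1 and Ddit3 kept their direction and their call under 15 of 15 settings, that of the report included, but not their size: the log2 ratio of Stra6 ranged from 4.69 to 8.45, of Smoc2 from 4.99 to 8.88, of Ntf3 from 3.81 to 7.46 and of Prox1 from 2.97 to 7.55, and of Atf3 from -8.33 to -3.64, of Ecel1 from -9.54 to -3.19 and of Ddit3 from -7.64 to -2.67, with the largest sizes after ambient RNA was subtracted. In that subtraction, values under 0 were set to 0, so its ratios can rest on the pseudocount of 0.5 CPM and are not measured fold changes. The number of genes higher moved from 892 to 542 with a filter at 50 CPM and ranged from 1116 to 1157 when either library was left out. The number lower moved from 1244 to 553 with a filter at 50 CPM and to 2823 with no filter, and ranged from 1614 to 1740 when either library was left out. These filters change the number of genes tested. Median-of-ratios scaling moved the median log2 ratio of all genes from -0.138 to -0.0239. The share of cluster 7 was 11.1% of the neuron subset and Unknown nuclei together, and 3.43% to 4.75% when a library was left out. Against excitatory nuclei only, Gad2 reversed to 1.29, and against L2/3 IT CTX-1 nuclei, a comparison chosen after seeing the data, to 0.87. Of 151 called genes, the first of these also ended the calls of Crhbp, Dlx6os1, Grm8, Kcnd2 and Slc1a2, and the second ended 18, among them Rbfox3, Homer1, Sarm1, Grik1, Gfra1, Herpud1, Kcnmb2, Ddah1 and Pdpn. Thinning to 2000 UMIs ended 9 of the 151: Arc, Bcl2, Cacna1c, Gfra1, Herpud1, Homer1, Mycbp2, Sesn2 and Sort1. For the Atf3 split, the fit with no replicate block also called 0 genes (325 at an unadjusted p under 0.05). Not run were the Atf3 split after thinning, or without any nucleus with a microglia-list UMI, because a group was empty, the split in 1 library, which leaves 1 sum per group, and the gene counts without any nucleus with a microglia-list UMI, which leaves 42 and 1 nuclei. Depth limits genes under 3.34 and 1.99 CPM, the level of 3 counts.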
